A study of Rattus norvegicus with 4 samples.

Results

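The genes described are 9 members of the neuregulin and epidermal growth factor (EGF) family of signals: the neuregulins Nrg1 and Nrg3, the EGF-type ligands Hbegf, Areg, Btc and Tgfa, and the receptors Erbb2, Erbb3 and Egfr. They were taken by symbol, and each of the 9 matched 1 of the 25629 features of the files. Single-cell RNA sequencing was done on dorsal root ganglia, the clusters of sensory neuron bodies beside the spinal cord, of male Sprague-Dawley (SD) rats that the series describes as wild type and naïve. Sham 1 and Sham 2 were libraries of the sham group, and CPIP 1 and CPIP 2 were libraries of the CPIP group. CPIP is not spelled out in the labels; in pain research it stands for chronic post-ischaemia pain. Each library was a pool of ganglia L4 to L6 from the ipsilateral side of 3 rats, digested with dispase, collagenase and papain, and the 2 libraries of a group are biological replicates per the labels. All 4 libraries thus share strain, sex, ganglia, side and digestion, and neither the age of the rats nor the time after surgery was given. The comparison asks in which cells the ligands and receptors were found and whether their levels differed between the sham and CPIP groups.

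As background, ligands of this family are made as membrane-bound precursors, which proteases of the ADAM and BACE families cut to release the active EGF-like part. Released ligands bind receptors that pair with one another: Egfr takes the EGF-type ligands, Erbb3 and Erbb4 take the neuregulins, and Erbb2, which has no known ligand of its own, is the preferred partner of the others. In nerves, neuregulin 1 on axons acts on Erbb2 and Erbb3 of Schwann cells, which depend on it for survival, migration and the thickness of their myelin.

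The 4 libraries held 11829 to 12828 barcodes and 60885664 to 64550637 unique molecular identifiers (UMIs, counted molecules), and 19 of 49149 distinct barcodes occurred in more than 1 library. After filtering, 44346 cells were kept in 27 clusters, and clusters were named from marker genes of each cell type, so that a name means likeness in those markers. Of the 107 markers of the 9 named classes, 92 were highest in their own class, but only 7 of 12 for satellite glia and 6 of 12 for non-myelinating Schwann cells. A cluster of 3920 cells scored best for satellite glia but was led by Schwann cell genes; it stayed unnamed and is called Cdh19-Prrg4 glia after 2 of its leading genes. Another 6184 barcodes in 4 clusters scored best for neurons but had medians of only 697 to 859.5 UMIs, against 4139 to 18650 in the 8 neuron clusters; they also stayed unnamed and are called low-UMI neuron-like barcodes. Levels are CPM, counts per 1000000, that is UMIs of a gene per 1000000 UMIs of the class in that library, with mean ± SD over the 4 libraries where a single value is given. Comparisons of classes are descriptions without a test, since the classes came from the same cells, and CPM is not corrected for gene length, so levels are compared between cells and not between genes.

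RefSeq promoter windows (rat build GRCr8) were matched by symbol for 7 of the 9 members, of which Tgfa, Egfr and Areg are printed because their levels were highest in different classes, satellite glia, fibroblasts and macrophages. Each is the 250 bases before the annotated start, 5′ to 3′ on the gene's strand. Capitals mark matches on either strand to the TATA box TATAAA, the cyclic AMP response element TGACGTCA, the GC box GGGCGG or the AP-1 motif TGANTCA.
Tgfa promoter, chr4:120175469-120175718, plus strand: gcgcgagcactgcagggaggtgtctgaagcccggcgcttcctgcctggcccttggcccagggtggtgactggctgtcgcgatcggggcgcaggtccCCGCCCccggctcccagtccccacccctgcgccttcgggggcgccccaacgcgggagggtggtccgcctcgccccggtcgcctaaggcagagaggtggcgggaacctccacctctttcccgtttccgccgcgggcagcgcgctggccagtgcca
Egfr promoter, chr14:95378376-95378625, plus strand: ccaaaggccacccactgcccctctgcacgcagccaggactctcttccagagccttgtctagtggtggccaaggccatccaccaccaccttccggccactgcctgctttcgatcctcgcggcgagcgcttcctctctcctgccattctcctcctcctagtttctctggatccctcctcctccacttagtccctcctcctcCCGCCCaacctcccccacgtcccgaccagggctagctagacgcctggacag
Areg promoter, chr14:17265642-17265891, minus strand: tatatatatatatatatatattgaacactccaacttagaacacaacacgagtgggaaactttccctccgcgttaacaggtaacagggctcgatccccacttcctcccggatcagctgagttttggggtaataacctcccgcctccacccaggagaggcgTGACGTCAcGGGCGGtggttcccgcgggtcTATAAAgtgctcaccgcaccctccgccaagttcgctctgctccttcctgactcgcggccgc
The Areg window held a cyclic AMP response element that begins 91 bases before the start, a GC box at 82 bases and a TATA box at 61 bases. Of all 33469 windows of this length, 1.59% held the cyclic AMP response element, 12.9% the TATA box, 30.5% the GC box and 6.34% the AP-1 motif. The Tgfa and Egfr windows each held 1 GC box and none of the other motifs. The windows were 74.4% (Tgfa), 63.6% (Egfr) and 54.4% (Areg) G and C, against a median of 51.2%. These matches are descriptions of the sequence, with no binding measured here.

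Nrg1, whose protein is the axonal signal to Schwann cells, was found mainly in neurons and in the low-UMI neuron-like barcodes. In neurons its level was 35.8 CPM in Sham 1 and 36.4 CPM in Sham 2, against 33.7 CPM in CPIP 1 and 40.8 CPM in CPIP 2. In the low-UMI barcodes it was 690, 565, 615 and 706 CPM in the same order. Every low-UMI value lay above every value of the named classes. Neurons held 38.2% to 47.5% of all Nrg1 UMIs of a library and the low-UMI barcodes 36.7% to 48.0%, with 8423 UMIs in all. Among the named classes with at least 3 UMIs in every library, myelinating Schwann cells followed neurons with 26.0 ± 7.98 CPM and overlapped them in range (20.0 to 37.2 CPM). Non-myelinating Schwann cells had 21.0 ± 4.81 CPM, endothelial cells 9.68 ± 3.54 CPM and satellite glia 8.31 ± 2.05 CPM. Pericytes had 45.7 ± 26.9 CPM, but this rested on 2 to 8 UMIs per library. When cells were thinned to 1000 UMIs each, 3.87% to 5.10% of neurons and 0.679% to 0.994% of satellite glia had an Nrg1 UMI. Without thinning the shares were 24.4% to 29.1% of neurons, at median depths of 5811 to 5958 UMIs, and 3.21% to 4.64% of satellite glia, at 4728 to 5884.5 UMIs.

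**Figure D1:**
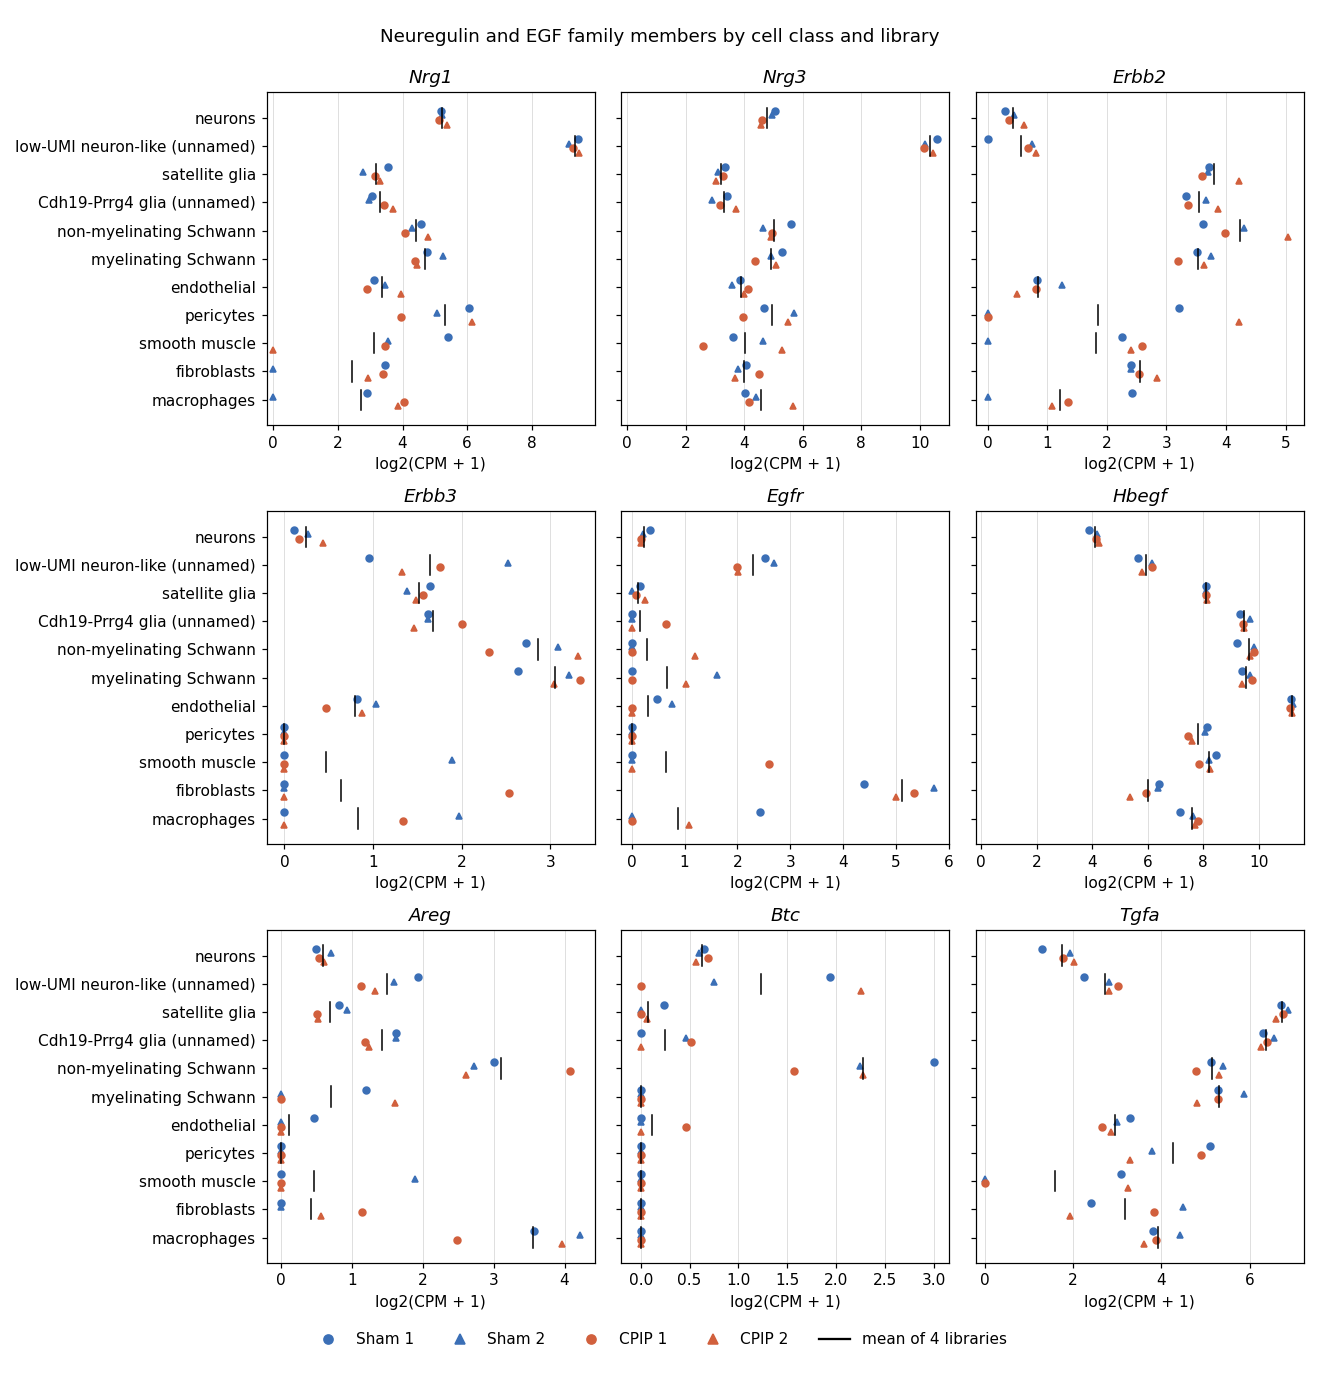
Level of each of the 9 members in 9 named cell classes and 2 unnamed groups, as log2(CPM + 1) on the horizontal axis; each point is 1 library and each black line the mean of the 4 log values. Nrg1 and Nrg3 are highest in the low-UMI neuron-like barcodes, Hbegf in endothelial cells (2247 to 2431 CPM), Tgfa in satellite glia (96.0 to 116 CPM) and Egfr in fibroblasts (20.1 to 51.6 CPM).

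Within neurons, Nrg1 was highest in the cluster led by Pvalb (cluster 17), a gene of large proprioceptive neurons. The leading genes of cluster 17 also included Cbln2 and Ntng1. In a finer clustering (resolution 2.0), a cluster of 529 cells was led by Pvalb. Another of 346 cells was led by Cbln2 and Ntng1, without Pvalb among its leading genes. Nrg1 was not measured in those clusters separately. The Nrg1 level in cluster 17 was 74.3 CPM in Sham 1 and 141 CPM in Sham 2, against 91.4 CPM in CPIP 1 and 125 CPM in CPIP 2. The Kcnv1 cluster (cluster 16), which is rich in neurofilament genes of large neurons, followed with 57.6 ± 8.23 CPM, below every value of the Pvalb cluster. The remaining 6 clusters, whose leading genes are those of small or unmyelinated fibre types, had means of 20.6 to 40.0 CPM. The lowest were the Trpm8 cluster of cold-sensing neurons (20.6 ± 3.93 CPM) and the Calca cluster of peptidergic nociceptors (22.0 ± 3.22 CPM), whose ranges overlapped.

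Nrg3, which codes for a neuregulin that binds Erbb4, was concentrated in the low-UMI neuron-like barcodes still more than Nrg1. Its level there was 1554 CPM in Sham 1 and 1168 CPM in Sham 2, against 1121 CPM in CPIP 1 and 1402 CPM in CPIP 2. These barcodes held 57.8% to 66.4% of all Nrg3 UMIs of a library, and neurons held 18.6% to 29.7%. In neurons the level was 32.0, 29.8, 23.5 and 23.0 CPM. Non-myelinating Schwann cells (32.8 ± 10.3 CPM) and myelinating Schwann cells (29.9 ± 7.57 CPM) overlapped neurons in range, with 13 to 34 UMIs per library. Among neuron clusters the pattern was not that of Nrg1. Nrg3 was highest in the Kcnv1 cluster (37.7 ± 5.47 CPM) and the P2rx3 cluster of nociceptors (33.4 ± 7.60 CPM), and the Pvalb cluster had 21.3 ± 5.23 CPM. An unnamed low-UMI cluster scored best for non-myelinating Schwann cells (482 barcodes, median 614 UMIs). It held 262 to 365 CPM of Nrg3 and 55.1 to 268 CPM of Nrg1. High levels of both genes were thus found in low-UMI barcodes of neuronal and of glial type; the part of barcode quality in these levels was not tested.

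**Figure D2:**
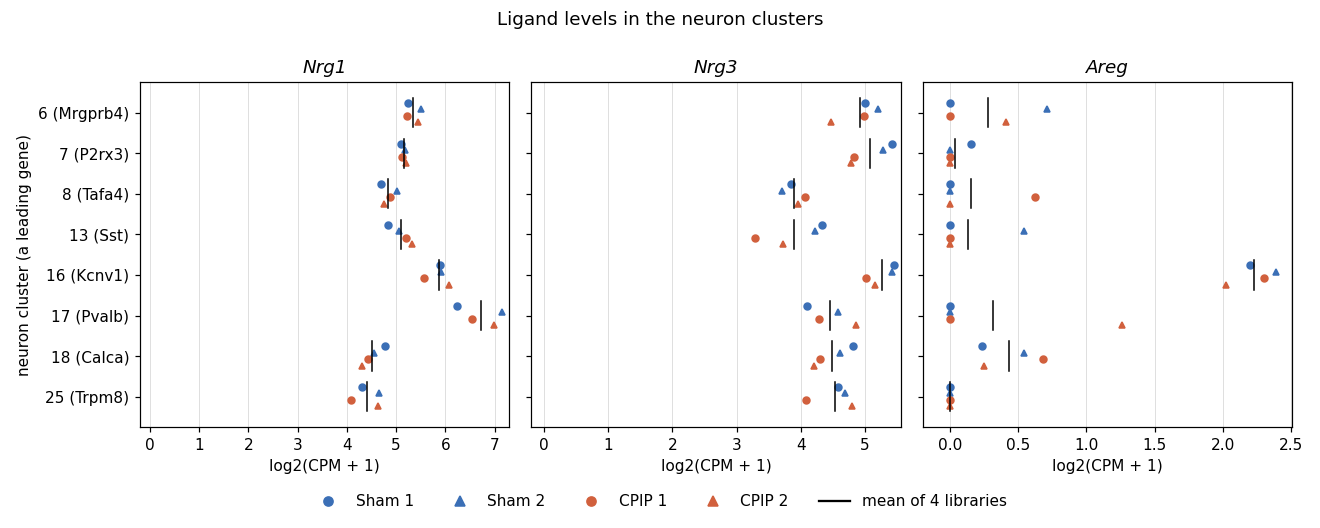
Levels of Nrg1, Nrg3 and Areg in the 8 neuron clusters, labelled by cluster number and a leading gene, as log2(CPM + 1); each point is 1 library and each black line the mean of the 4 log values. Nrg1 is highest in the Pvalb cluster (74.3 to 141 CPM), and Areg in the Kcnv1 cluster (3.06 to 4.23 CPM).

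Hbegf, the gene of heparin-binding EGF-like growth factor, which binds Egfr and Erbb4, had its highest level in endothelial cells. It was 2293 CPM in Sham 1 and 2431 CPM in Sham 2, against 2247 CPM in CPIP 1 and 2349 CPM in CPIP 2, and all of these values lay above those of every other class. The next were non-myelinating Schwann cells (809 ± 145 CPM), myelinating Schwann cells (759 ± 100 CPM) and Cdh19-Prrg4 glia (717 ± 70.6 CPM), which overlapped in range. Smooth muscle (296 ± 49.9 CPM), satellite glia (276 ± 5.71 CPM), pericytes (228 ± 52.8 CPM) and macrophages (194 ± 34.9 CPM) formed a lower tier. Fibroblasts (66.7 ± 20.6 CPM), the low-UMI barcodes (61.4 ± 10.6 CPM) and neurons (16.3 ± 1.91 CPM) were lowest. Satellite glia, with 13008 cells against 2920 endothelial cells, held 24.8% to 32.8% of the 71187 Hbegf UMIs, and endothelial cells 31.9% to 37.6%. A Hbegf UMI was seen in 85.5% to 87.5% of endothelial cells, at median depths of 2866 to 3226 UMIs, and in 77.7% to 79.9% after thinning. In neurons the shares were 9.76% to 12.4%, and 1.16% to 1.90% after thinning. Within satellite glia, the cluster led by Gbp5 and Spp1 held 342 ± 8.27 CPM, more in every library than the other clusters of that class with 197 ± 8.48 and 223 ± 12.9 CPM.

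Tgfa, the gene of transforming growth factor alpha, a ligand of Egfr, was highest in satellite glia. The level was 104 CPM in Sham 1 and 116 CPM in Sham 2, against 107 CPM in CPIP 1 and 96.0 CPM in CPIP 2, above every value of the other named classes. Satellite glia held 68.9% to 78.2% of its 10562 UMIs. Cdh19-Prrg4 glia followed with 82.2 ± 7.40 CPM, also below every satellite glia value, then myelinating Schwann cells (40.1 ± 12.9 CPM) and non-myelinating Schwann cells (26.7 to 41.1 CPM), which overlapped. Endothelial cells had 6.83 ± 1.48 CPM and neurons 2.45 ± 0.705 CPM. After thinning, 8.66% to 10.6% of satellite glia and 0.0703% to 0.319% of neurons had a Tgfa UMI. The 3 satellite glia clusters were close to one another, at 111 ± 7.41, 107 ± 13.6 and 93.0 ± 4.12 CPM.

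Areg and Btc, the genes of amphiregulin and betacellulin, both ligands of Egfr, were rare. Areg had 215 UMIs in all cells. In macrophages its level was 10.9 CPM in Sham 1 and 17.5 CPM in Sham 2, against 4.61 CPM in CPIP 1 and 14.6 CPM in CPIP 2, from 3 to 13 UMIs per library. Non-myelinating Schwann cells had 8.40 ± 5.01 CPM and overlapped macrophages. Of the neurons, the Kcnv1 cluster had 3.58, 4.23, 3.93 and 3.06 CPM of Areg, from 7 to 10 UMIs per library, and no library of another neuron cluster exceeded 1.40 CPM. Btc had 85 UMIs, of which 55.0% to 72.2% per library were in neurons at 0.544 ± 0.0559 CPM. Non-myelinating Schwann cells had 4.15 ± 2.11 CPM of Btc from 2 to 5 UMIs per library.

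**Figure D3:**
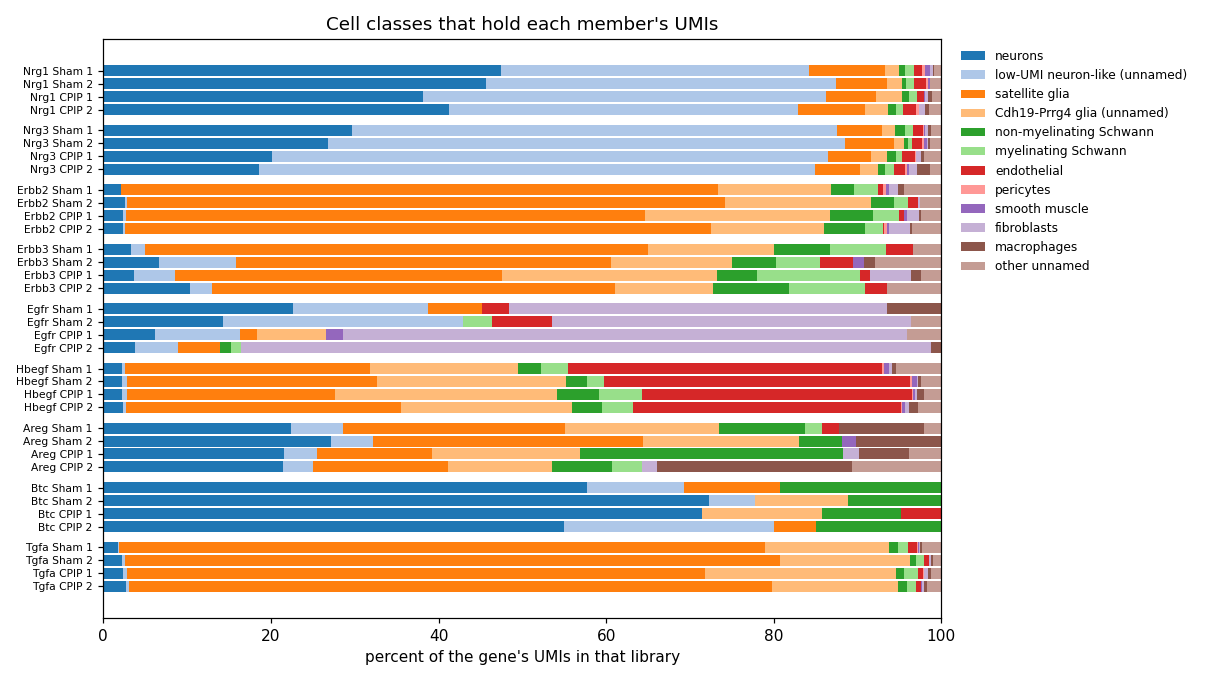
Share of each member's UMIs (percent, horizontal axis) that each cell class held, with 1 bar per gene and library. Satellite glia hold 61.9% to 71.3% of the Erbb2 UMIs, endothelial cells 31.9% to 37.6% of the Hbegf UMIs, and fibroblasts 42.9% to 82.3% of the Egfr UMIs.

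The receptors Erbb2 and Erbb3 were found mainly in glia. Erbb2 in satellite glia was 12.1 CPM in Sham 1 and 12.0 CPM in Sham 2, against 11.1 CPM in CPIP 1 and 17.5 CPM in CPIP 2, with CPIP 2 the highest. Satellite glia held 61.9% to 71.3% of the 1452 Erbb2 UMIs. Non-myelinating Schwann cells had 11.3, 18.7, 14.8 and 32.0 CPM, from 8 to 25 UMIs per library. Cdh19-Prrg4 glia (10.9 ± 2.14 CPM) and myelinating Schwann cells (10.6 ± 1.80 CPM) overlapped satellite glia. In neurons the level was 0.349 ± 0.131 CPM and in endothelial cells 0.833 ± 0.404 CPM, below every value of the glial classes. Within satellite glia, Erbb2 was highest in the cluster with the highest mitochondrial share (14.0 to 22.9 CPM), and its range overlapped that of the others (8.89 to 15.5 and 10.9 to 17.1 CPM).

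Erbb3, the receptor that binds neuregulins directly and needs a partner to signal, had 295 UMIs in all cells. In myelinating Schwann cells it was 5.22 CPM in Sham 1 and 8.27 CPM in Sham 2, against 9.07 CPM in CPIP 1 and 7.21 CPM in CPIP 2. Non-myelinating Schwann cells had 6.51 ± 2.18 CPM and overlapped that range, with an Erbb3 UMI in 4 to 6 cells per library. Satellite glia had 1.87 ± 0.214 CPM, below every Schwann cell value. Satellite glia nonetheless held 39.0% to 60.0% of the Erbb3 UMIs. Neurons had 0.187 ± 0.121 CPM. The low-UMI neuron-like barcodes held 1.67% to 9.21% of the Erbb3 UMIs of a library, seen in 1 to 7 barcodes per library.

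Egfr, the receptor of Hbegf, Tgfa, Areg and Btc, had its highest level in fibroblasts. Its level in fibroblasts was 20.1 CPM in Sham 1 and 51.6 CPM in Sham 2, against 39.7 CPM in CPIP 1 and 30.9 CPM in CPIP 2, from 14, 12, 33 and 65 UMIs. These values lay above those of all other classes, of which the low-UMI barcodes were next with 4.02 ± 1.23 CPM. An Egfr UMI was seen in 7.59% to 17.9% of fibroblasts and 2.86% to 4.84% after thinning, at median depths of 3293 to 3820 UMIs. In neurons it was seen in 0.116% to 0.237% of cells, and in satellite glia in up to 0.111%. The classes with the highest levels of Hbegf and Tgfa, endothelial cells and satellite glia, had Egfr at 0.269 ± 0.336 and 0.0933 ± 0.0831 CPM.

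The remaining family genes were looked up as well. Egf, the founding ligand, had 30.6 ± 3.12 CPM in the low-UMI barcodes and 13.8 ± 3.62 CPM in myelinating Schwann cells. Nrg2, another neuregulin, had 33.7 ± 1.82 CPM in the low-UMI barcodes and 4.03 ± 0.378 CPM in neurons. Erbb4, the receptor shared by neuregulins and Hbegf, was highest in myelinating Schwann cells with 6.05 ± 3.46 CPM from 1 to 7 UMIs per library. Nrg4, Ereg and Epgn had at most 8 UMIs in any library. Of the genes that act beside the receptors, those highest in satellite glia, the class with the most Erbb3 UMIs, were named by rule. For shedding these were Timp3, an inhibitor of the sheddases (1652 ± 95.5 CPM), and Adam17, the main sheddase of the EGF-type ligands (383 ± 17.8 CPM). Among adaptors and kinases Pik3r1, a regulatory subunit of PI3-kinase, had 637 ± 62.1 CPM. Among inhibitors of the signal they were Spry2 (530 ± 22.9 CPM) and Spred1 (168 ± 4.14 CPM). Among co-receptors they were the tetraspanins Cd9 (1461 ± 51.9 CPM) and Cd151 (228 ± 7.42 CPM). The transcription factors Egr1 (1791 ± 189 CPM) and Myc (1093 ± 40.1 CPM) led the downstream targets. Egr1 is also a known gene of the response to dissociation.

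For each member with at least 10 CPM in a named class, the genes with the most similar levels over the 9 named classes were listed by Pearson r of log2(CPM + 1) of the class means. Tgfa was nearest to Slc27a1 (r = 0.989), Erbb2 to Akr1c19 (r = 0.994) and Egfr to Myoc (r = 0.996) and Apod (r = 0.979), which are genes of fibroblasts and glia. Hbegf was nearest to C2h4orf33 (r = 0.970), Nrg1 to Thoc5 (r = 0.959) and Nrg3 to Crlf3 (r = 0.983). Thoc5 (22.2 CPM) and Crlf3 (43.9 CPM) were highest in pericytes, where 2 to 4 cells per library had an Nrg1 UMI, and likewise for Nrg3. No minimum of UMIs per class was set for these correlations. Areg was nearest to Mthfd2l (r = 0.967). In the GRCr8 gene order Mthfd2l is the third protein-coding gene from Areg, after Ereg and Epgn, with Btc on the other side. All points of these correlations share the 4 libraries, and they are given as descriptions.

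Sham and CPIP were compared with edgeR's quasi-likelihood test on UMIs summed per library and cell group, adjusted over all tested genes of the group. No member was called at an adjusted p under 0.05 in any of 11 cell groups (44 tests) or in all retained cells together (9 tests). At unadjusted p under 0.05 there were 4 of these 53 tests. Among all genes edgeR had 3584 of 90931 tests under it over the 11 groups, and 801 of 15901 in all retained cells. DESeq2, which tested 100, called 0 and had 2 at unadjusted p under 0.05. It called 0.0142% of all genes over the 11 groups, with 1085 of 175513 tests at unadjusted p under 0.05. Of all genes, edgeR called 0.00330% over the 11 groups, that is 3 of 90931 gene tests, and 0% in all retained cells, so 0 calls among the members lay near the background. Without CPIP 1, which leaves 1 CPIP library, more genes were called in these groups and none of them was a member. The members' tests are too few for this to set them apart from all genes. The replicates are pools of rats, so the p-values measure the spread between 2 pools in each group. Members that passed the low-count filter numbered 7 in satellite glia and in Cdh19-Prrg4 glia, 6 in neurons and 5 in non-myelinating Schwann cells. They numbered 4 each in endothelial cells, fibroblasts and myelinating Schwann cells, 3 in the low-UMI barcodes, 2 in macrophages and 1 (Hbegf) in pericytes and in smooth muscle. In 11 of the 44 tests the values of the 2 groups did not overlap, with CPIP above Sham in 4 and below it in 7. This held for 32.8% of all genes over the same groups, so the members' share of such separations was not above the background.

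**Figure D4:**
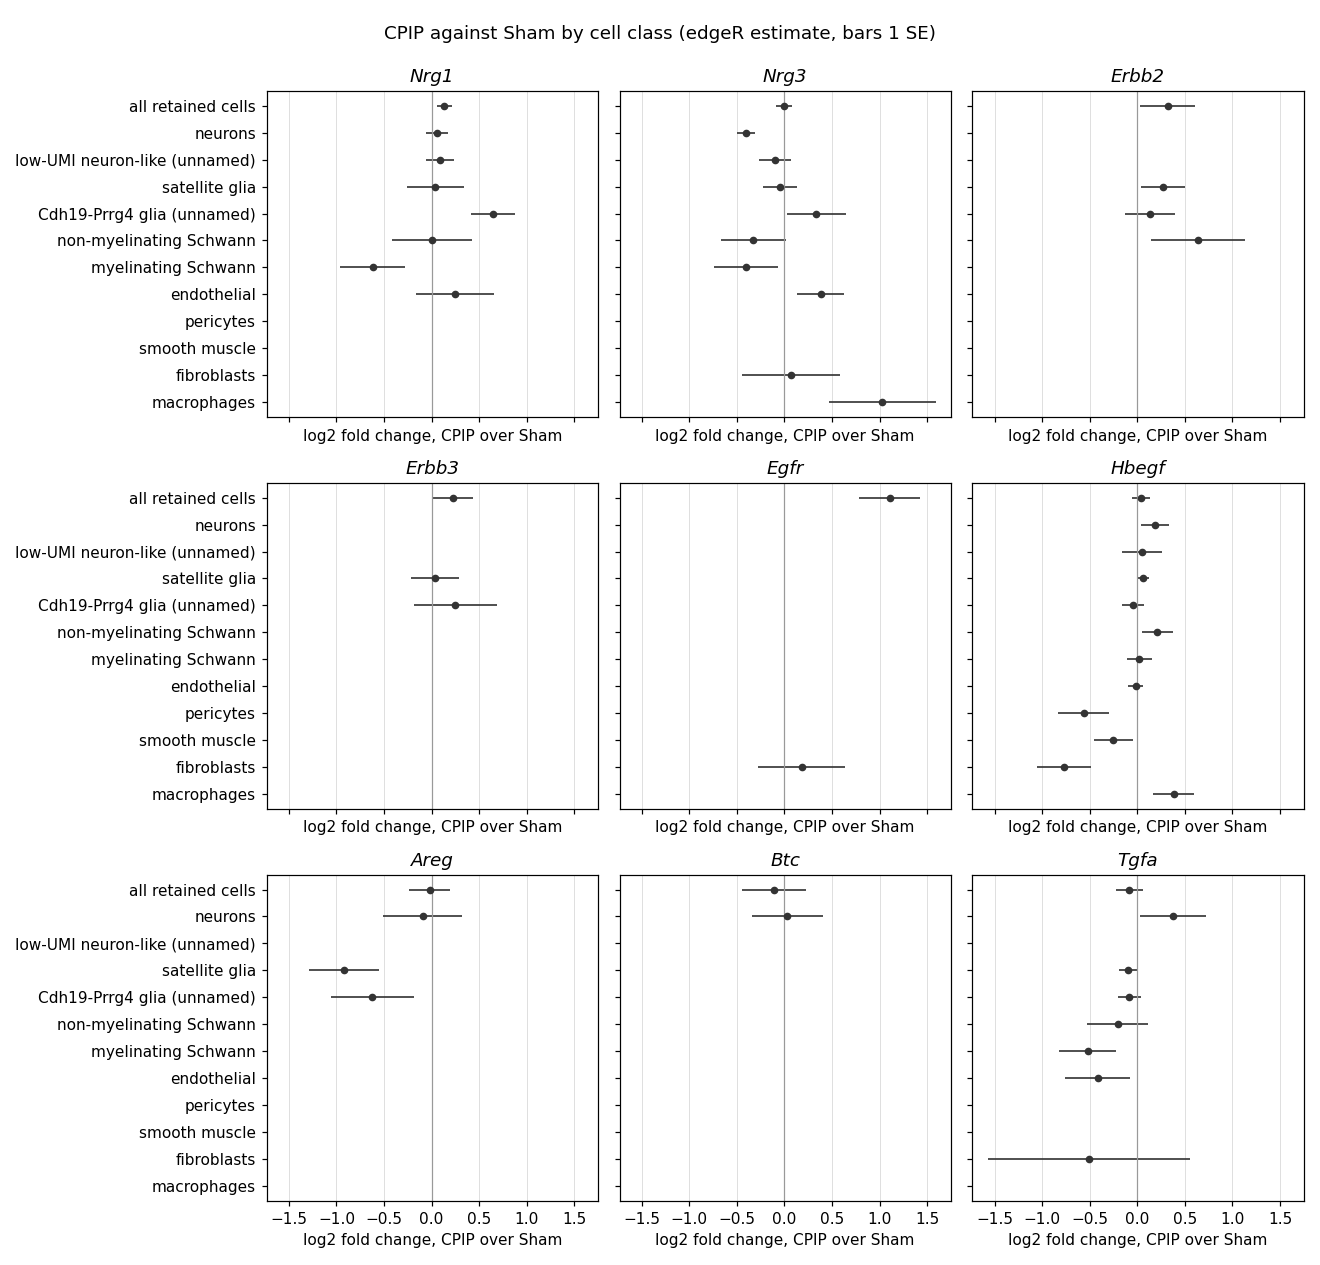
Log2 fold change of CPIP over Sham for each member in each cell group where it passed the low-count filter; points are edgeR estimates and bars 1 standard error, and groups without a point were not tested. Nrg3 in neurons is at -0.40 and Hbegf in fibroblasts at -0.77, and no value passed the adjusted threshold.

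Nrg3 in neurons had the smallest p of the members' tests in the cell groups. The 2 Sham libraries had 32.0 and 29.8 CPM and the 2 CPIP libraries 23.5 and 23.0 CPM, without overlap, a direction and separation that 18.0% of all genes tested in neurons had. The log2 fold change was -0.40 ± 0.097 (SE; unadjusted p = 0.00673, edgeR adjusted p = 0.966). With clusters drawn at resolution 2.0 it was -0.25 (unadjusted p = 0.113, edgeR adjusted p = 0.974). The neuron class then included a cluster of 565 barcodes (median 1117 UMIs) with Nrg3 among its leading genes. The part of that cluster in the smaller estimate was not tested. Of the 8 neuron clusters, 5 had both CPIP values below both Sham values, 1 had them above, and 2 overlapped; over the neuron clusters 18.6% of all gene tests were of the first kind. The clusters come from the same 4 libraries and are not independent of one another. In the P2rx3 cluster Nrg3 was 41.8 CPM in Sham 1 and 37.7 CPM in Sham 2, against 27.5 CPM in CPIP 1 and 26.5 CPM in CPIP 2 (log2 fold change -0.54 ± 0.12, edgeR adjusted p = 0.999). In that cluster 0.00907% of all genes were called, and over the 8 clusters 0.0244%. Of the members' 27 tests in the 8 clusters edgeR called 0, with 4 at unadjusted p under 0.05, and DESeq2 called 0 of 65. Among all genes, edgeR had from 271 of 8009 (Trpm8 cluster) to 661 of 9590 (Kcnv1 cluster) at unadjusted p under 0.05. Without the low-count filter the edgeR adjusted p of Nrg3 in the P2rx3 cluster was 0.0361, so that this call depended on the setting. In that setting 254 of 17276 genes were called in the cluster. Nrg3 and Hbegf were also called there without CPIP 1, as were many other genes, but that fit leaves 1 CPIP library. In the Tafa4 cluster (cluster 8), Nrg3 was 13.4 and 12.0 CPM in Sham and 15.7 and 14.4 CPM in CPIP. In the low-UMI barcodes, which held most of its UMIs, Nrg3 overlapped between groups (log2 fold change -0.10 ± 0.17).

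Some other measures in neurons also differed between the groups, as 4499 of the 13643 genes tested there did without overlap. Of 15 marker lists of other cell types, 9 overlapped between the groups. The summed level of the fibroblast marker list, all 12 of which were detected in neurons, was 88.8 and 75.9 CPM in Sham and 96.1 and 124 CPM in CPIP. Of 15 such lists of other cell types, 4 were higher in CPIP neurons without overlap, those of fibroblasts, perineurial cells (22.8 and 22.9 against 24.3 and 31.0 CPM), erythroid cells (3.21 and 1.39 against 5.30 and 26.0 CPM) and B cells (3.89 and 2.11 against 4.61 and 4.14 CPM). Those of smooth muscle (6.56 and 5.92 against 4.08 and 5.72 CPM) and of T and NK cells (28.8 and 30.1 against 28.3 and 23.0 CPM) were lower. Of the genes known to respond to dissociation, 16 of 17 tested were higher on average in CPIP neurons, with a median log2 fold change of 0.205 against 0.0061 for all genes, although their summed level overlapped between groups. The part of these in the Nrg3 values was not tested. Nrg1 in neurons overlapped between groups (log2 fold change 0.056 ± 0.11), as it did in the low-UMI barcodes (0.087 ± 0.14).

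In Cdh19-Prrg4 glia and myelinating Schwann cells the estimates for Nrg1 had opposite signs. In Cdh19-Prrg4 glia it was 7.37 and 6.77 CPM in Sham and 9.85 and 12.2 CPM in CPIP (log2 fold change 0.64 ± 0.23, unadjusted p = 0.0273, edgeR adjusted p = 0.998). There 14.1% of all genes were apart in this direction. In myelinating Schwann cells it was 26.1 and 37.2 CPM in Sham and 20.0 and 20.6 CPM in CPIP, from 18 to 22 UMIs per library (log2 fold change -0.62 ± 0.34, edgeR adjusted p = 0.948). There 15.3% of all genes were apart in that direction, and under the stricter cell filter (at least 1000 UMIs and at most 15% mitochondrial UMIs) the log2 fold change was -0.31. The summed level of the dissociation-response genes in these cells was 15389 and 15550 CPM in Sham and 17077 and 16337 CPM in CPIP, and 14 of 17 had positive estimates. Of 15 marker lists of other cell types, 5 were higher and 1 was lower in CPIP without overlap. Among all genes tested in these cells, 2384 of 7004 lay apart in either direction. The neuron list, all 15 of its markers detected, was 1933 and 2126 CPM in Sham and 2294 and 2440 CPM in CPIP. The part of these in the Nrg1 values was not tested. The receptors on the glial side overlapped between groups. Erbb2 changed by 0.27 ± 0.23 in satellite glia and 0.64 ± 0.49 in non-myelinating Schwann cells on the log2 scale, and Erbb3 by 0.036 ± 0.26 in satellite glia. CPIP 2 had the highest Erbb2 value in both classes, and without it the log2 fold change was -0.10 in satellite glia and 0.039 in non-myelinating Schwann cells. Without CPIP 1 it was 1.14 in non-myelinating Schwann cells.

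Hbegf was the most precisely measured member. Endothelial cells gave a log2 fold change of -0.016 ± 0.080 and Cdh19-Prrg4 glia one of -0.049 ± 0.12, with overlapping libraries. In satellite glia the 2 CPIP libraries (276 and 284 CPM) lay just above the 2 Sham libraries (272 and 271 CPM), with a log2 fold change of 0.060 ± 0.064 (edgeR adjusted p = 0.979), as 13.2% of all genes did. In fibroblasts Hbegf was 84.5 CPM in Sham 1 and 81.6 CPM in Sham 2, against 60.2 CPM in CPIP 1 and 40.4 CPM in CPIP 2 (log2 fold change -0.77 ± 0.28, unadjusted p = 0.0286, edgeR adjusted p = 1.00), a separation shared by 13.9% of genes. The share of fibroblasts with a Hbegf UMI after thinning went the other way, at 5% and 4.62% in Sham and 8.06% and 5.58% in CPIP. These shares came from 3 to 24 cells per library, and without thinning the shares overlapped. Sham 2 held 67 fibroblasts, of which 14 had a Hbegf UMI. The summed endothelial marker level in fibroblasts, all 13 markers detected, was 107 and 60.2 CPM in Sham and 108 and 96.0 CPM in CPIP. It overlapped between the groups, while 4 of 15 lists of other cell types were higher in CPIP fibroblasts without overlap and 0 were lower. For comparison, 1039 of 6756 genes in fibroblasts lay apart upwards. In macrophages Hbegf was 144 and 199 CPM in Sham and 209 and 224 CPM in CPIP (log2 fold change 0.38 ± 0.21), where 14.9% of genes were apart upwards. Of 15 marker lists of other cell types, 4 were higher and 2 lower in CPIP macrophages without overlap, while 2004 of 6084 genes lay apart. The fibroblast list, with 1 of 12 markers at 0, was 417 and 409 CPM in Sham and 433 and 1551 CPM in CPIP. The satellite glia list was 2450 and 2700 CPM in Sham and 1919 and 2108 CPM in CPIP, and the macrophages' own 14 markers were 23756 and 23185 CPM in Sham and 26278 and 28188 CPM in CPIP. The part of these in the Hbegf values was not tested. Pericytes had 281 and 264 CPM in Sham and 173 and 193 CPM in CPIP (-0.56 ± 0.27), where 15.8% were apart downwards.

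Tgfa in satellite glia overlapped between groups, with a log2 fold change of -0.095 ± 0.10, and so it did in Cdh19-Prrg4 glia (-0.083 ± 0.12). The summed level of the satellite glia's own 12 markers was lower in CPIP (8230 and 7984 CPM) than in Sham (8471 and 9847 CPM). Areg in satellite glia was 0.763 and 0.899 CPM in Sham and 0.426 and 0.439 CPM in CPIP, from 7 to 19 UMIs per library (log2 fold change -0.92 ± 0.37, unadjusted p = 0.0514, edgeR adjusted p = 0.979), as 18.9% of genes were apart downwards there. In neurons Areg (-0.093 ± 0.42) and Btc (0.030 ± 0.37) rested on 11 to 16 UMIs per library.

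Egfr gave the largest estimate over all retained cells. It was 0.556 CPM in Sham 1 and 0.475 CPM in Sham 2, against 0.857 CPM in CPIP 1 and 1.36 CPM in CPIP 2 (log2 fold change 1.11 ± 0.32, unadjusted p = 0.0174, edgeR adjusted p = 0.859), as 18.2% of genes were apart upwards. Fibroblasts, which held most of the Egfr UMIs in CPIP, numbered 158 and 67 in the Sham and 193 and 475 in the CPIP libraries. Within fibroblasts the groups overlapped and the log2 fold change was 0.18 ± 0.46. From dissociated cells, it cannot be told apart whether the ganglia or the captured suspensions differed in fibroblasts.

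The effect of CPIP was also compared between neurons and satellite glia with an interaction term in edgeR. None of the 8 members tested was called, and 2 of all 14162 genes were (0.0141%). The smallest p-values were those of Nrg3 (-0.32 ± 0.15 for neurons minus satellite glia, unadjusted p = 0.0606, edgeR adjusted p = 0.789) and Tgfa (0.50 ± 0.25, unadjusted p = 0.0740, adjusted p = 0.801). Btc (1.42 ± 1.75), Areg (0.85 ± 0.60) and Erbb3 (0.76 ± 0.83) had larger contrasts with larger errors.

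The other pathway genes were counted by list. Of 679 tests of these genes over the cell groups and all retained cells, edgeR called 0, with 38 at unadjusted p under 0.05. DESeq2 called 0 of 833, with 17. Among all genes over the 11 groups, 3584 of 90931 tests were under it with edgeR and 1085 of 175513 with DESeq2. Without CPIP 1, edgeR called 17 of 694 tests, of 10 genes, 14 of them higher and 3 lower in CPIP 2 than in the 2 Sham libraries. This was 2.45% of the tests, against 2.58% of all genes in the same groups and setting, so the pathway genes lay at the background. Of the 17 calls, 10 were of Etv5, a transcription factor induced by this signal, Rhbdf1, an inactive rhomboid that Adam17 needs, and Bace1, the protease that cuts neuregulin 1. In satellite glia Etv5 was 54.5 CPM in Sham 1 and 52.2 CPM in Sham 2, against 48.9 CPM in CPIP 1 and 110 CPM in CPIP 2. Rhbdf1 there was 44.0, 45.7, 44.3 and 75.9 CPM in the same order, and Bace1 2.70, 2.89, 2.19 and 5.85 CPM. CPIP 2 alone was high for these 3 genes, which were named after their values were seen, and CPIP 1 lay with the Sham libraries or below them. In satellite glia, 12 of 18 inhibitors of the signal, 5 of 8 shedding genes, 11 of 17 adaptors and kinases and 6 of 12 downstream targets had positive estimates. Their medians were 0.052, 0.11, 0.035 and -0.0049 on the log2 scale, against 0.0067 for all genes. In neurons 9 of 12 downstream targets were positive, with a median of 0.29 against 0.0061, and 5 of them were at unadjusted p under 0.05, against 528 of 13643 genes (3.87%). Of the adaptors and kinases 5 of 17 were positive, with a median of -0.068. Of the inhibitors 9 of 17 were positive, with a median of 0.017, and of the shedding genes 6 of 7, with a median of 0.18. Without overlap, 6 targets lay upwards and 0 downwards, and 0 adaptors and kinases upwards and 5 downwards. For inhibitors it was 3 and 3, and for shedding genes 2 and 1. Among all genes in neurons 18.0% lay apart downwards and 2050 of 13643 upwards. The 5 targets at unadjusted p under 0.05 were the transcription factors Egr1, Egr2, Egr3 and Myc, and Phlda1, an immediate early gene. They were named after their values were seen. Egr1 in neurons was 60.7 and 64.6 CPM in Sham and 75.8 and 77.7 CPM in CPIP (log2 fold change 0.30 ± 0.081, edgeR adjusted p = 0.966). Myc was 77.1 and 88.6 CPM in Sham and 95.1 and 106 CPM in CPIP. The genes of the response to dissociation, with which this list shares Egr1 and Ier3, had 16 of 17 positive estimates in neurons, as given above, and the 2 patterns were not separated by a test.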

How the data were processed

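Cells of rat dorsal root ganglia were profiled by single-cell RNA sequencing in 4 libraries, 2 of the sham and 2 of the CPIP group. The deposited tables hold raw UMI counts per gene and barcode, whole numbers without normalization per the file headers and values. The aligner, annotation, genome build and cell calling were not given in the sources used here. Barcodes with at least 200 genes and at most 25% mitochondrial UMIs were kept. The doublet caller of scanpy 1.11.5 marked only 1, 4 and 2 cells in 3 libraries (278 in CPIP 2), so in each library the 5% of cells with the highest doublet scores were removed. Clustering used 2000 variable genes without the members and pathway genes, 30 principal components, 15 neighbours and Leiden resolution 1.0 (igraph 0.11.9, Python 3.11.15). A cluster was named by the marker list with the highest score. It needed at least 3 of its markers in at least 10% of cells and a runner-up at no more than 0.75 of that score, and was checked on its 10 leading genes. These thresholds were set after the clusters were seen.

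UMIs were summed per library and cell group with at least 30 cells in every library. CPIP was compared with Sham by edgeR 4.0.16 (R 4.3.3, quasi-likelihood test, TMM factors, filterByExpr, Benjamini-Hochberg adjustment, threshold 0.05). The fit was also run on simulated counts of satellite glia, with the same spread for every gene and changes only in well-detected genes. That run cannot show how the test behaves at low counts or with the spread between real pools. DESeq2 1.42.0, no TMM factor, no low-count filter, a block for the replicate number, other cell filters, another clustering resolution and leaving out each library were tried. With 2 libraries against 2, an exact two-sided permutation test of one value cannot go below p = 0.33, so none was used. Shares of cells were also computed after thinning each cell to 1000 UMIs. Named genes were the members, pathway genes called by the test, the 2 highest of each list in the class with most Erbb3 UMIs, the further ligands and receptors, and the genes nearest to each member. One gene that this rule names is not reported here. The members and lists were chosen with earlier results of these data known.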

Additional observations from a re-analysis of the deposited data

Results flagged for a closer look

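For 3 members the CPIP libraries lay above the Sham libraries in one cell group and below them in another. Among all genes, 14.1% lay apart upwards in Cdh19-Prrg4 glia, 14.9% in macrophages and 1358 of 9760 in endothelial cells. Downwards it was 15.3% in myelinating Schwann cells, 18.0% in neurons and 13.9% in fibroblasts. How many genes lay apart in opposite directions in different groups was not counted. Hbegf also lay apart upwards in satellite glia and downwards in pericytes, which were not paired for a test. The pairs of groups were picked after the members' values were seen. Each difference was then tested with an interaction term in edgeR, adjusted over all genes of the pair. For Nrg1 the log2 fold change in Cdh19-Prrg4 glia exceeded that in myelinating Schwann cells by 1.25 ± 0.42 (SE; unadjusted p = 0.00510, adjusted p = 1, 10527 genes). Its level was higher in CPIP in the first group and lower in the second, where the log2 fold change moved from -0.62 to -0.31 under the stricter cell filter. For Nrg3 the log2 fold change in endothelial cells exceeded that in neurons by 0.75 ± 0.26 (unadjusted p = 0.00814, edgeR adjusted p = 0.641, 13886 genes). Nrg3 in endothelial cells was 13.4 and 11.1 CPM in Sham and 16.4 and 14.9 CPM in CPIP. Its log2 fold change there was 0.38, and 0.16 (unadjusted p = 0.565 by edgeR) under the stricter cell filter. For Hbegf the log2 fold change in macrophages exceeded that in fibroblasts by 1.23 ± 0.35 (unadjusted p = 0.00164, edgeR adjusted p = 0.929, 7926 genes). The share of fibroblasts with a Hbegf UMI after thinning was not lower in CPIP (8.06% and 5.58%) than in Sham (5% and 4.62%). None of the 3 differences passed the adjusted threshold. Single libraries far from the others of their group were not looked for, since each group has 2 libraries.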

How the results depend on the processing

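Of the members' tests over the cell groups and all retained cells, 0 were called under each alternative tried. In the neuron clusters the members had 1 call in 65 tests without the low-count filter (Nrg3 in the P2rx3 cluster). In that cluster and setting 254 of 17276 genes were called. Without CPIP 1, which leaves 1 CPIP library, Nrg3 and Hbegf were called in the P2rx3 cluster, as were many other genes there. Leaving out another library gave no member call in the neuron clusters. The calls of other pathway genes were 1 without the low-count filter and 0 to 17 when 1 library was left out, the most without CPIP 1. Calls over all genes of the 11 cell groups numbered 3. They numbered 25 with DESeq2, 450 without the low-count filter, 8 with the stricter cell filter (at least 1000 UMIs and at most 15% mitochondrial UMIs) and 43 to 2359 when 1 library was left out, with 282 without CPIP 2 and 2359 without CPIP 1. The replicate block gave 11 such calls and none among the members. Deviations of same-numbered libraries correlated at -0.31 (fibroblasts) to 0.0692 (pericytes), and at -0.21 in all cells, so the numbers were not shown to pair the libraries. With the numbers crossed, an alternative chosen after seeing the data, 210 genes and 0 members were called. Of 235 log2 fold changes under alternatives, for 22 results, 213 kept direction and side of the threshold, 20 changed sign and 2 newly passed it, both in the P2rx3 cluster. The stricter cell filter turned Erbb3 in satellite glia to -0.51 and Egfr in fibroblasts to -0.035. Leaving out 1 library gave a log2 fold change of -0.079 to 0.18 for Nrg1 in neurons, -0.076 to 0.25 for Nrg1 and -0.31 to 0.13 for Nrg3 in the low-UMI barcodes, and -0.10 to 0.55 for Erbb2 and -0.14 to 0.22 for Erbb3 in satellite glia. It gave -0.53 to 0.77 for Egfr in fibroblasts, -0.37 to 0.24 for Areg and -0.16 to 0.19 for Btc in neurons, and -0.063 to 0.033 for Hbegf in endothelial cells. In Cdh19-Prrg4 glia it gave -0.20 to 0.12 for Hbegf and -0.19 to 0.039 for Tgfa, and for Tgfa in satellite glia -0.19 to 0.0045. The cause was not tested. Of 63 levels in the members' highest classes, 58 stayed within 1 SD of the mean of the 4 libraries. Leaving out 1 library cannot move that mean by 1 SD of the same values, so those rows say nothing about stability. Only the levels with doublets kept, the stricter cell filter or resolution 2.0 could move, and every level that moved was among them. The non-myelinating Schwann class, highest by mean for Nrg3 and Erbb2 among the named classes, was itself different at resolution 2.0. It held 785 to 1206 cells per library, against 351 to 654. A cluster of 1922 cells with Scn7a, Cdh19 and Prrg4 among its leading genes was then in that class. The neuron clusters were not run with doublets kept, the stricter filter or resolution 2.0.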
